A study of Mus musculus with 12 samples.

Results

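The genes described here are 39 genes of skeletal muscle fibres, of 22195 mouse genes measured in RNA from tumours. They were listed by name for their place in the muscle fibre: 14 genes of fast fibres, 5 of slow fibres, 12 of the sarcomere frame, 3 of calcium release and 5 of muscle energy supply. The tumours grew under the skin of immunocompetent C57BL/6J mice from YUMM2.1, a mouse melanoma cell line. The 4 groups have 3 libraries each: mice given isotype control IgG, mice given antibody against B7-H3 (anti-B7-H3), mice given antibody against PD1 (anti-PD1), and mice given both antibodies (combination). All mice thus carried the same tumour line and received an antibody, starting at a tumour size of 20 to 50 mm3. B7-H3 and PD1 are immune checkpoint proteins, and the study asked how their blockade changes the immune cells of the dissected tumours. Doses, mouse ages and whether each library is a separate mouse are not given in the sources used here, so p-values measure the spread between these libraries, which may be technical.

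A skeletal muscle fibre shortens when myosin motors in thick filaments pull on actin in thin filaments. An action potential opens the calcium release channel of the sarcoplasmic reticulum, calcium binds troponin C, and the thin filament is freed for myosin. Calcium is then pumped back into the store. Fast and slow fibres use different genes for the same parts: myosin heavy chains, the 3 troponin subunits, and myosin-binding protein C each have a fast and a slow form. Fast fibres hold the calcium buffer parvalbumin and rely on glycogen and phosphocreatine, and slow fibres rely on oxidation. Muscle lies close beneath mouse skin, as the thin sheet of the panniculus carnosus and as body wall muscle. In bulk RNA, fewer fibres and less RNA per fibre cannot be told apart.

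Combination libraries held 4409772 to 5014931 reads, anti-B7-H3 libraries 3593110 to 3937727, anti-PD1 libraries 8099713 to 10527704 and isotype control libraries 15585622 to 21298142. A set of 13 predicted genes took a mean of 31.7% of combination reads, 0.214% of anti-B7-H3 reads, 72.7% of anti-PD1 reads and 93.0% of isotype control reads. Reads on olfactory receptor (Olfr) genes, which are not expected to be transcribed in a tumour, were used as a background per kilobase of coding length. That rate was 0.648 ± 0.0419 reads per kb (SD, n = 3) for the combination, 0.0559 ± 0.00516 for anti-B7-H3, 5.20 ± 0.25 for anti-PD1 and 6.86 ± 0.31 for isotype control. A level below is the reads of a gene beyond this background per 1e6 reads of the scaled library total, and it can be negative. The melanoma label was checked with 7 melanocyte genes, of which 3 stood above background in combination, 5 in anti-B7-H3 and 4 in each of the other groups. In combination libraries Sox10 had 370, 342 and 379 reads, while Pmel had 0, 1 and 3, Dct 1, 2 and 1, and Tyrp1 0, 2 and 0.

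Most of the muscle genes had their highest level in the combination tumours. All 39 stood above background there, meaning that the exact 95% Poisson lower bound of their summed reads exceeded the background expected at the Olfr rate. At the rate of 16 long genes of other tissues, 1.47 reads per kb in combination, Myh8, Mybpc1 and Xirp1 would not. For Mybpc1 and Xirp1 not every combination library held a read, which a bound on summed reads ignores. The number above background was 22 in anti-PD1, 21 in anti-B7-H3 and 12 in isotype control. Of all genes, 65.2% stood above background in combination, 58.5% in anti-PD1, 67.8% in anti-B7-H3 and 45.8% in isotype control, and of the Olfr genes themselves 0.841%, 5.97%, 1.35% and 5.89% in that order. In isotype control 10 members fell below background, as did 4 in anti-PD1. Of 16 long genes of other tissues, 13 fell below in isotype control and 13 in anti-PD1. In anti-B7-H3, where the background was near 0, 9 members had no read in any library and 20 of 39 had at most 3 reads in all. The shares of all genes below background, or with so few reads, were not counted, so these numbers describe the members only.

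**Figure D1:**
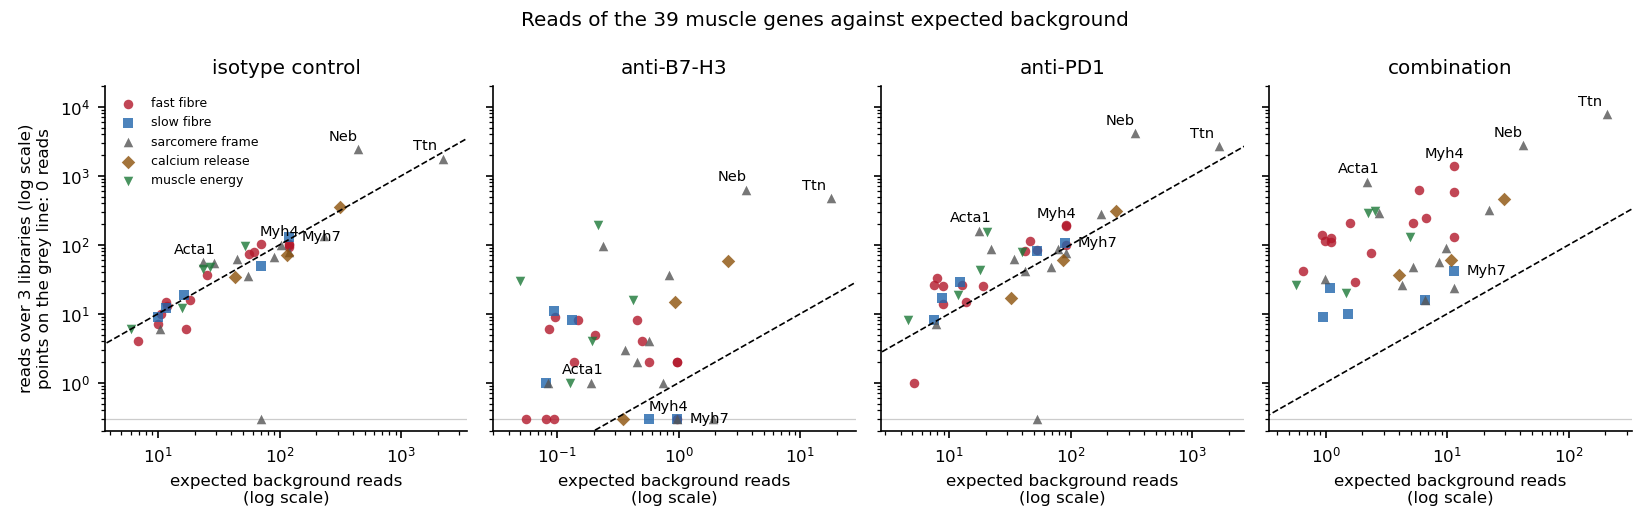
Reads of each of the 39 genes summed over the 3 libraries of a group (y axis, log scale) against the background reads expected from Olfr genes (x axis, log scale, a different range in each panel), with colour and shape giving the gene list and the dashed line marking equality. Points on the grey line have 0 reads. In combination all 39 genes lie above the dashed line, while in isotype control 10 lie below it beyond counting error.

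The combination group held the highest mean level for 32 of the 39 members, which is 82.1%. Over the 21956 genes with a read, the same was true of 15.9%. All 14 fast fibre genes were highest in combination, against 2 of 5 slow fibre genes. These ranks compare group means at the Olfr rate, take no account of spread, and were not repeated at other rates. For Myl1, Mybpc2, Actn3 and Casq1, single isotype control libraries overlapped or passed the combination libraries on this scale. Isotype control was highest for Neb, Pygm, Ldb3 and Myh7, anti-PD1 for Tnnt1 and Mybpc1, and anti-B7-H3 for Cox6a2.

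Against anti-B7-H3, the combination had the higher summed level in every list of members. With no filter on low counts, 33 of the 39 members were higher and none lower in the combination (edgeR's quasi-likelihood test, adjusted p under 0.05 over all genes), where 13.9% of all 21947 genes were called higher and 11.7% lower. The usual filter on low counts kept 33 of the 39 members. Of these, 30 were higher and 0 lower, beside 19.8% of genes called higher and 19.1% lower. With background subtracted, 27 of 29 members tested were higher and 0 lower, beside 15.0% and 14.8% of genes, and these 27 were all among the 30. Some members, among them Tnnc2, Myl1 and Pvalb, passed the filter through the combination libraries alone and so had to differ. The same filter leans the other comparisons of the combination toward higher calls. The median log2 fold change of the 33 members was 5.11, or 4.01 with the 9 genes that had no read in anti-B7-H3 set at their bound, against 0.00939 over all genes.

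Against anti-PD1, the combination was higher for most fast fibre genes and mixed for the rest. With the filter, 17 of 33 members were higher and 4 lower, beside 23.1% of genes called higher and 23.4% lower. Without the filter, 19 of 39 were higher and 5 lower, beside 20.2% and 31.8% of genes. With background subtracted, 25 of 29 were higher and 1 lower, beside 19.3% and 17.2% of genes, and all 17 genes higher on the deposited counts were among the 25. The gene lower in both fits was Neb. The background rate was 5.20 reads per kb in anti-PD1 and 0.648 in combination, and a long gene collects more of it.

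The comparisons with isotype control depended on how the background was treated. On the deposited counts the combination had 11 members higher and 15 lower of 33 (27.8% and 29.5% of genes), and with background subtracted 18 higher and 2 lower of 29 (24.6% and 16.3% of genes). All 11 were among the 18: Acta1, Atp2a1, Ckm, Eno3, Myh1, Myh4, Mylpf, Tnnc2, Tnni2, Tnnt3 and Ttn. The 2 lower in both fits were Neb and Pygm. Anti-B7-H3 had 0 members higher and 31 lower of 33 (30.8% and 33.3% of genes), but with background subtracted 1 higher, which was Ttn, and 12 lower of 29 (31.1% and 22.0% of genes). The direction for Ttn turned at another background rate, given with that gene. Anti-PD1 had 0 higher and 21 lower (17.5% and 20.9% of genes). With background subtracted, 4 members were higher in anti-PD1, Myh1, Myh4, Ttn and Xirp2, and 5 were lower, Casq1, Ckm, Mybpc2, Neb and Pygm (12.9% and 9.02% of genes). The 3 comparisons share the isotype control libraries, and the 2 others share the combination libraries. Because that background made up 20.0% to 21.2% of isotype control reads outside the genes of highest share, fold changes of single members against isotype control are not given, and reads are set beside background instead.

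The fast myosin heavy chains, the motors of fast fibres, gave the clearest pattern. Myh4, the heavy chain of type IIb fibres, had 447, 409 and 517 reads in the combination libraries, where 11.3 background reads were expected over the group. It had no read in any anti-B7-H3 library, 60, 73 and 54 in anti-PD1 (90.8 expected), and 33, 27 and 39 in isotype control (120 expected). Each combination library thus held several times the Myh4 reads of any other library. Isotype control libraries were more than 3 times as deep in total. Outside the genes of highest share they held fewer reads, 1133223 to 1288387, beside 2702909 to 3251139 in combination. The level was 35.4 ± 0.910 per 1e6 in combination and 3.85 ± 1.0 in anti-PD1, with no overlap. The combination was at least 525-fold higher than anti-B7-H3, taking a floor of 3 reads over the group (edgeR adjusted p = 8.14e-45). Against anti-PD1 its log2 fold change was 2.41 (SE 0.11, edgeR adjusted p = 1.068e-29), and 3.12 (SE 0.14) with background subtracted.

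Myh1, the heavy chain of type IIx fibres, followed Myh4. It had 184, 197 and 192 reads in combination, 0, 0 and 2 in anti-B7-H3, 80, 65 and 50 in anti-PD1, and 38, 27 and 26 in isotype control, where it lay below background. The ratio of combination to anti-B7-H3 was 329, with a 95% counting interval of 90.6 to 2721 (edgeR adjusted p = 6.599e-34). Against anti-PD1 the log2 fold change was 1.09 (SE 0.14, edgeR adjusted p = 5.335e-10). Myh2, the heavy chain of type IIa fibres, was lower than both, with 50, 33 and 48 reads in combination, 0, 1 and 1 in anti-B7-H3, 25, 32 and 42 in anti-PD1 and 30, 40 and 31 in isotype control. Only the combination stood above background for Myh2, and its ratio to anti-B7-H3 was 75.2 (20.4 to 627; edgeR adjusted p = 4.413e-17). Against anti-PD1, Myh2 gave a log2 fold change of -0.07 (SE 0.23, edgeR adjusted p = 0.8395) on the deposited counts and 2.58 (SE 0.68, edgeR adjusted p = 0.003476) with background subtracted.

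The myosins in the combination tumours were mainly of the fastest types. Of the reads beyond background per kb over 5 skeletal heavy chains, Myh4 made up 65.2% ± 2.36 (SD, n = 3), Myh1 27.0% ± 2.74, Myh2 5.71% ± 1.04, slow Myh7 1.51% ± 0.183 and perinatal Myh8 0.606% ± 0.293. In anti-PD1 libraries Myh1 made up 44.2% ± 12.6, Myh4 42.7% ± 8.47 and Myh7 6.20% ± 0.782, and the ranges of Myh1 and Myh4 overlapped. Values below background were set to 0 before shares were taken. Myh7 in anti-PD1 was close to background, so its share there is uncertain beyond the SD. These heavy chains are close in sequence, as are the muscle actins, so reads could be split between copies in ways the deposited values do not show.

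At the level of the combination, isotype control libraries would have held more fast myosin reads than they did. At that level 345 Myh4 reads would be expected over the group, background included, and 100 were seen (exact 95% Poisson interval 81.4 to 122). For Myh1 the numbers were 214 expected and 92 seen (74.2 to 113), and for Tnnt3 50.6 expected and 6 seen (2.20 to 13.1). For Myh7 they were 125 expected and 130 seen (109 to 154), so a Myh7 level like that of the combination was not detectable against this background. In anti-PD1, 983 Myh4 reads would be expected and 188 were seen (162 to 217). These intervals cover counting error only, and the expected numbers rest on the Olfr rate.

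The stretch around the start of transcription of Myh4, Myh1, Acta1 and Myh7 is printed to show how the promoters of the fast heavy chains, of skeletal actin and of the slow heavy chain compare. Each runs from 250 bases before to 50 bases after the RefSeq start on GRCm38.p6, 5′ to 3′ on the strand of the gene. Capitals mark an E-box (CAGCTG, or CACCTG on either strand), a TATA box (TATAAA on the strand of the gene), a MEF2 motif or a CArG box. Myogenic regulators such as MyoD bind E-boxes, MEF2 proteins the MEF2 motif, and serum response factor the CArG box.
Myh4, chr11:67237562-67237861 (+): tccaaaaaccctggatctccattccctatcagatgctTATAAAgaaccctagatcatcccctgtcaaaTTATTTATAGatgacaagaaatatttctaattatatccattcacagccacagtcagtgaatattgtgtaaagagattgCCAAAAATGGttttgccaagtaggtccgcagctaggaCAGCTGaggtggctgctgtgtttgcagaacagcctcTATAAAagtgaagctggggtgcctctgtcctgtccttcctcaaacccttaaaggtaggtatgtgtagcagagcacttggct
Myh1, chr11:67199852-67200151 (+): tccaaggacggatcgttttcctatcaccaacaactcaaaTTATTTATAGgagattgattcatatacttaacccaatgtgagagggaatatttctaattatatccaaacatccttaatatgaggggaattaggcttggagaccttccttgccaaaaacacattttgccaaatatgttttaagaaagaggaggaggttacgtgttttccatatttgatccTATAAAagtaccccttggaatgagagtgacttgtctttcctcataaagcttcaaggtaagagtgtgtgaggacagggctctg
Acta1, chr8:123894726-123895025 (-): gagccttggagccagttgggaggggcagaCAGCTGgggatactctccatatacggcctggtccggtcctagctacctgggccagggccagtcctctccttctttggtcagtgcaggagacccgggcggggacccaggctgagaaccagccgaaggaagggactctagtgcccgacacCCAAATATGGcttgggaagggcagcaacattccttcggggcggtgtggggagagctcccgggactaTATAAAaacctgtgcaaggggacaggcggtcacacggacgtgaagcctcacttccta
Myh7, chr14:54994577-54994876 (-): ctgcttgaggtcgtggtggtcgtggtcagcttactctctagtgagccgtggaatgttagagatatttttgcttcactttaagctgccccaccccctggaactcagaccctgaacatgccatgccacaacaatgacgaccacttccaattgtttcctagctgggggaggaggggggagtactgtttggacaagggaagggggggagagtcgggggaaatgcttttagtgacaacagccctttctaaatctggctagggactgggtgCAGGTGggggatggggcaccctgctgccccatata

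The Myh4 and Myh1 stretches share the letters TTATTTATAG, which start 182 and 211 bases upstream, and a TATAAA that starts 31 and 32 bases upstream. The CArG match of Myh4 starts 104 bases and its CAGCTG 67 bases upstream. In Acta1 the CArG match starts 73 bases upstream. The printed Myh7 stretch, the first of its 2 listed starts, held 1 match to CACCTG on the other strand and none to the others. RefSeq listed 33 promoters for 29 of the 39 members. CAGCTG was found in 45.5% of them and in 16.3% of all 32851 promoters, CACCTG in 27.3% and 20.2%, and TATAAA in 15.2% and 8.32%. A MEF2 motif was found in 21.2% and 3.19% and a CArG box in 15.2% and 1.63%, with both strands searched. By position, a MEF2 match can contain TATAAA, and no matches overlapped in the 4 printed stretches. A match is a description of letters, not of a bound site.

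Most of the other listed fast fibre genes were also higher in combination. Of the 13 fast genes that passed the filter, all 13 were higher in combination than in anti-B7-H3 and 12 were higher than in anti-PD1, the exception being Myh2. Over all genes, 19.8% and 23.1% were called higher. Some of the 13 passed through the combination libraries alone, so their calls were partly fixed by the filter. With no filter, 14 of 14 were higher than in anti-B7-H3 and 12 of 14 than in anti-PD1. The shares of all genes called higher were then 13.9% and 20.2%. With background subtracted all 13 were higher than in anti-PD1, beside 19.3% of genes. The median log2 fold change of the fast genes was 6.53 against anti-B7-H3 (5.71 with genes at 0 reads at their bound) and 1.67 against anti-PD1, beside medians of 0.00939 and -0.00496 over all genes. A further 6 genes listed as fast fibre genes but not among the 39 did not show this. They were Myh13, Mylk2, Sypl2, Smtnl1, Mylk4 and Myot. Their summed level was 1.75 in combination, 0.840 in anti-B7-H3, -0.112 in anti-PD1 libraries and -7.37 in isotype control. Of the 3 that passed the filter, 1 was higher in combination than in anti-B7-H3, and 0 were higher and 1 lower than in anti-PD1. Over all genes these shares were 19.8%, 23.1% and 23.4%.

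Among the fast thin filament genes, Tnnt3, the troponin T that ties the complex to tropomyosin, had 76, 56 and 73 reads in combination, 1, 1 and 0 in anti-B7-H3, 6, 7 and 13 in anti-PD1 and 2, 0 and 4 in isotype control. Its ratio of combination to anti-B7-H3 was 118 (32.1 to 978; edgeR adjusted p = 6.229e-20), and its log2 fold change against anti-PD1 was 2.49 (SE 0.31, edgeR adjusted p = 1.682e-10). The 3 combination libraries stood apart from all 9 others. Tnni2, the inhibitory troponin I, had 38, 39 and 48 reads in combination, 5, 0 and 4 in anti-B7-H3, 4, 6 and 4 in anti-PD1 and 4, 3 and 6 in isotype control. It changed by 3.92 on the log2 scale (SE 0.42, edgeR adjusted p = 1.555e-12) against anti-B7-H3 and 2.66 (SE 0.39, edgeR adjusted p = 3.645e-08) against anti-PD1. Tnnc2, the calcium-binding troponin C, completes the fast troponin complex. It had 43, 48 and 46 reads in combination, none in anti-B7-H3, 8, 10 and 8 in anti-PD1 and 0, 3 and 4 in isotype control. The combination was at least 52.4-fold higher than anti-B7-H3 (edgeR adjusted p = 1.265e-16), with a log2 fold change of 1.92 (SE 0.35, edgeR adjusted p = 3.266e-06) against anti-PD1.

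The fast myosin light chains and binding protein belong to the thick filament. Mylpf, the regulatory light chain, had 40, 30 and 44 reads in combination, 2, 2 and 2 in anti-B7-H3, 9, 10 and 14 in anti-PD1 and 4, 5 and 1 in isotype control. Myl1, the essential light chain, had 44, 28 and 39 reads in combination, none in anti-B7-H3, 11, 6 and 8 in anti-PD1 and 3, 11 and 1 in isotype control. For both, each combination library held more reads than every library of the other groups. On the scaled level this held for Mylpf only. For Myl1, isotype control replicate 2 lay above every combination library on that scale. Mylpf had a log2 fold change of 4.32 (SE 0.44, edgeR adjusted p = 3.284e-13) against anti-B7-H3 and 1.31 (SE 0.33, edgeR adjusted p = 0.0006549) against anti-PD1. Myl1 was at least 42.5-fold higher than in anti-B7-H3 (edgeR adjusted p = 5.146e-13), with 1.67 (SE 0.38, edgeR adjusted p = 0.000255) against anti-PD1. Mybpc2, fast myosin-binding protein C, was read in the controls as well. It had 88, 67 and 88 reads in combination, 2, 0 and 0 in anti-B7-H3, 27, 32 and 25 in anti-PD1 and 27, 45 and 30 in isotype control, where 70.2 background reads were expected. Its ratio to anti-B7-H3 was 139 (38.2 to 1158; edgeR adjusted p = 1.222e-22), and its log2 fold change against anti-PD1 was 1.06 (SE 0.21, edgeR adjusted p = 2.396e-05). The isotype control level of Mybpc2 was 5.63 ± 6 and overlapped the combination level of 6.15 ± 0.672.

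Actn3, the Z-disc actinin of fast fibres, had 73, 59 and 77 reads in combination, 2, 6 and 0 in anti-B7-H3, 27, 38 and 17 in anti-PD1 and 36, 21 and 17 in isotype control. On the log2 scale Actn3 differed by 4.81 (SE 0.37, edgeR adjusted p = 9.07e-16) against anti-B7-H3 and 0.88 (SE 0.24, edgeR adjusted p = 0.001833) against anti-PD1. Reads were thus highest in the combination libraries, but on the scaled level isotype control replicate 1 lay above every combination library. Pvalb, the calcium buffer parvalbumin, was seldom read outside the combination. It had 10, 17 and 15 reads in combination, none in anti-B7-H3, 1, 0 and 0 in anti-PD1 and 1, 1 and 2 in isotype control. The combination was at least 16.1-fold higher than anti-B7-H3 (edgeR adjusted p = 1.775e-08), and its ratio to anti-PD1 was 30.4 (5.17 to 1230; edgeR adjusted p = 4.88e-06).

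Atp2a1, the calcium pump SERCA1 of fast fibres, and Casq1, the calcium-binding protein of the store, differed in size of change. Atp2a1 had 223, 184 and 220 reads in combination, 0, 2 and 2 in anti-B7-H3, 45, 38 and 29 in anti-PD1 and 25, 30 and 24 in isotype control. Its log2 fold change was 7.31 (SE 0.28, edgeR adjusted p = 1.173e-34) against anti-B7-H3 and 2.02 (SE 0.15, edgeR adjusted p = 1.29e-18) against anti-PD1. The combination libraries lay far above all others. Casq1 had 21, 33 and 22 reads in combination, 1, 3 and 1 in anti-B7-H3, 10, 8 and 7 in anti-PD1 and 11, 10 and 16 in isotype control. Its log2 fold change was 3.99 (SE 0.50, edgeR adjusted p = 3.359e-10) against anti-B7-H3 and 1.14 (SE 0.38, edgeR adjusted p = 0.009325) against anti-PD1. Without combination replicate 2 the second fell to 0.87 (edgeR adjusted p = 0.1033) and was no longer called. On the scaled level of Casq1, isotype control replicate 3 lay above every combination library. Myoz1, a Z-disc protein of fast fibres, did not pass the filter, with 4 to 15 reads a library in combination and 1 to 7 elsewhere.

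The slow fibre genes had few reads beyond background. Myh7, the slow heavy chain, had 15, 14 and 14 reads in combination, none in anti-B7-H3, 35, 37 and 33 in anti-PD1 and 42, 45 and 43 in isotype control. Background accounted for 11.3, 90.6 and 120 reads over the group in combination, anti-PD1 and isotype control, so the reads of anti-PD1 and isotype control were close to background, and the level was 0.819 ± 0.109, 0.563 ± 0.14 and 1.94 ± 1.9. The combination was at least 16.1-fold higher than anti-B7-H3 (edgeR adjusted p = 1.975e-10). Against anti-PD1 the deposited counts gave -1.74 (SE 0.27, edgeR adjusted p = 1.489e-07) on the log2 scale, and the counts beyond background 0.46 (SE 0.69, edgeR adjusted p = 0.6527), with the direction turned.

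The 4 other slow genes had few or uneven reads. Tnnt1 and Tnnc1, slow troponins T and C, did not pass the filter and had 2 to 4 reads a library in combination. Tnni1, slow troponin I, had 5 to 11 and was not called against anti-B7-H3. Mybpc1, slow myosin-binding protein C, had 16, 0 and 0 reads in combination, 20, 24 and 37 in anti-PD1 and 22, 0 and 27 in isotype control, so libraries of one group disagreed. Of the 3 slow genes tested, 1 was higher in combination than in anti-B7-H3 and 1 was lower than in anti-PD1, and that one was Myh7 in both. Over all genes, 19.8% were higher than in anti-B7-H3 and 23.4% lower than in anti-PD1.

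Summed over each list, the fast genes separated the combination from all other groups, and the slow genes overlapped between combination and anti-PD1. The summed fast level was 102.5 ± 3.10 in combination, 16.9 ± 2.34 in anti-PD1, 1.02 ± 0.291 in anti-B7-H3 and 0.306 ± 7.13 in isotype control. The summed slow level was 2.10 ± 0.555 in combination, 2.71 ± 0.522 in anti-PD1, 0.427 ± 0.198 in anti-B7-H3 and -1.54 ± 5.65 in isotype control. Within the combination, levels per kb of fast over slow partners were 17.0 for Tnnc2 over Tnnc1, 23.2 for Tnnt3 over Tnnt1, 5.34 for Tnni2 over Tnni1, 24.6 for Mybpc2 over Mybpc1 and 43.6 for Myh4 over Myh7. All 5 pairs thus leaned to the fast form, on few reads for the slow partner.

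**Figure D2:**
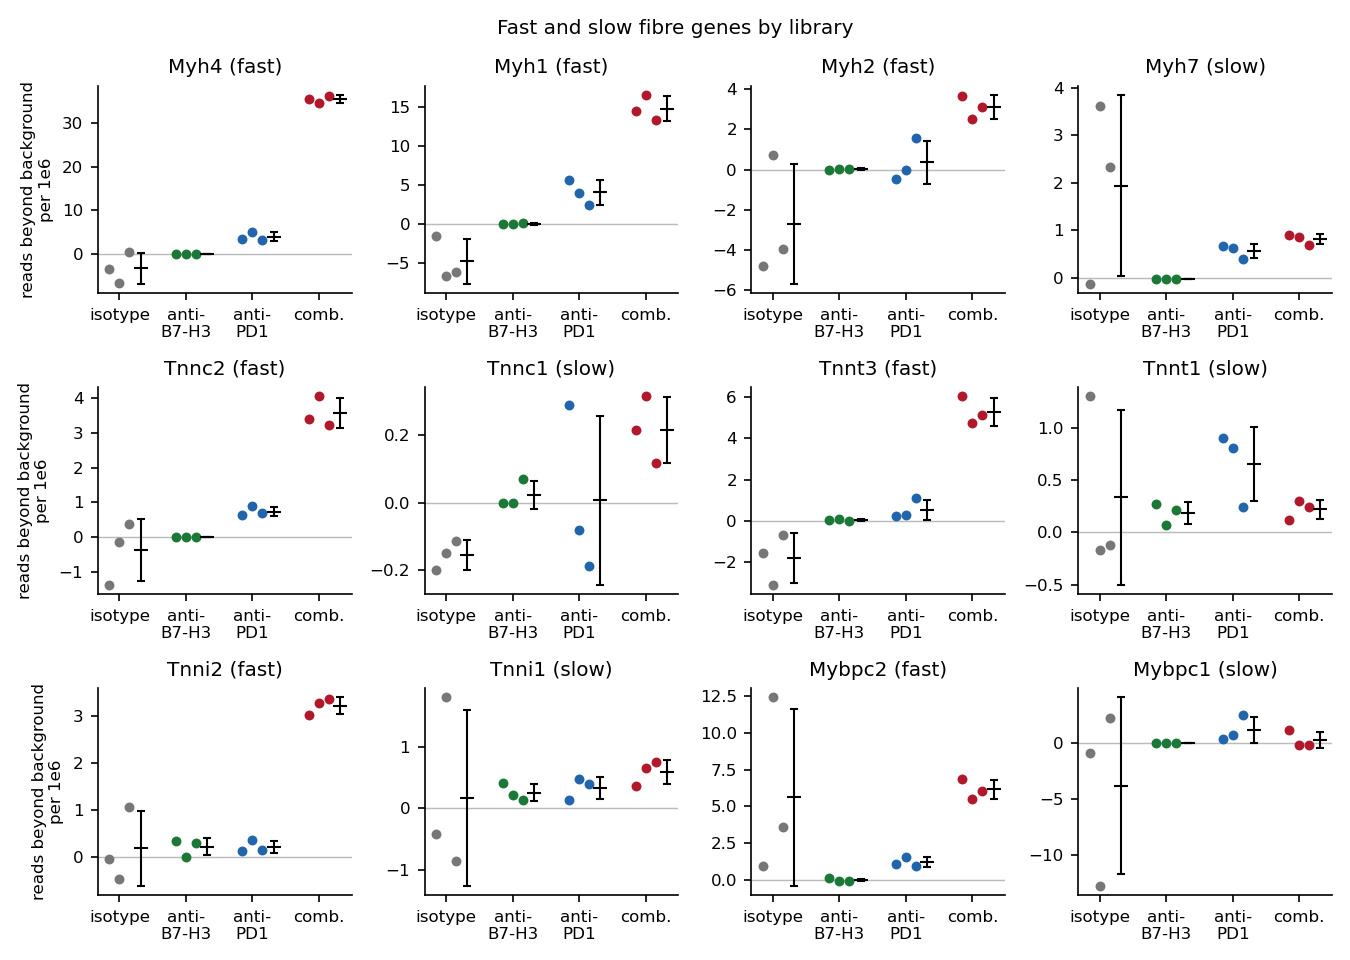
Level of 7 fast and 5 slow fibre genes in each library, as reads beyond background per 1e6 scaled reads (y axis, a range of its own in each panel), with 1 point a library, the mean and SD of each group as a bar beside it, and comb. for combination. For Myh4 the 3 combination libraries average 35.4 and stand above all others, while for Myh7 their average of 0.819 lies within the spread of isotype control.

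The sarcomere frame held the most reads. Acta1, skeletal actin of the thin filament, had 268, 230 and 326 reads in combination, 0, 1 and 0 in anti-B7-H3, 50, 63 and 47 in anti-PD1 and 16, 22 and 18 in isotype control. Every combination library lay above every other library. The ratio to anti-B7-H3 was 944 (169 to 37340; edgeR adjusted p = 1.9e-38), and the log2 fold change against anti-PD1 was 1.89 (SE 0.13, edgeR adjusted p = 2.524e-20). Per kb, Acta1 had the highest combination level of all members, 18.8 ± 1.53 per 1e6. Tnnc2 at 7.39 ± 0.90, Tnnt3 at 6.47 ± 0.820, Ckm at 6.45 ± 0.696, Eno3 at 6.18 ± 0.458 and Myh4 at 6.09 ± 0.156 followed, and the last 4 of these lay within 1 SD of each other. Among long or weakly read genes, Ttn was at 1.86, Ryr1 at 0.725 and Myh8 at 0.0569 on this scale.

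Ttn, the giant spring that spans half-sarcomeres (chr2:76703980-76982547, minus strand of GRCm38), was read most of all. It had 2569, 2390 and 2842 reads in combination, 175, 151 and 146 in anti-B7-H3, 926, 872 and 905 in anti-PD1 and 674, 524 and 567 in isotype control. Over the coding length of 106173 bases, 207, 17.8, 1656 and 2186 background reads were expected in combination, anti-B7-H3, anti-PD1 and isotype control, so isotype control lay below the Olfr background. The log2 fold change of the combination was 4.24 (SE 0.06, edgeR adjusted p = 1.796e-61) against anti-B7-H3 and 1.06 (SE 0.05, edgeR adjusted p = 1.379e-31) against anti-PD1, or 2.17 (SE 0.06) with background subtracted. Olfr genes are short, and 16 long genes of other tissues gave a different rate. At that rate 469, 282.5, 1345 and 1560 Ttn reads would be background in combination, anti-B7-H3, anti-PD1 and isotype control. At that rate all 4 groups lay above background, isotype control included. The Ttn level was then 191 ± 0.736 per 1e6 in combination, 54.0 ± 5.24 in anti-PD1, 29.9 ± 19.9 in isotype control libraries and 4.51 ± 0.637 in anti-B7-H3, beside 198 ± 1.99, 41.6 ± 5.6, -70.3 ± 35 and 10.8 ± 0.73 at the Olfr rate. The combination was highest at both rates, and the order of isotype control and anti-B7-H3 turned.

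The Ttn reads were assigned to different listed transcripts in different groups. In anti-B7-H3, 97.9% to 100% went to a transcript of 80817 bases with 192 exons. In combination 39.5% ± 1.0 and 39.5% ± 1.02 went to a pair of 100404 bases with 312 and 313 exons, and 13.5% ± 5.13 to the full 106173 bases with 347 exons. The share of the 80817-base transcript was 5.49% in combination, 3.46% in anti-PD1 and 0 in isotype control. The full transcript took 55.8% ± 22.8 in isotype control and 40.3% ± 13.1 in anti-PD1, where background was highest. Transcripts of one gene share most of their exons, so these shares are assignments by the authors' program and not direct counts.

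Neb, the ruler of the thin filament (chr2:52136647-52378474), went the other way. It had 925, 841 and 982 reads in combination, 201, 178 and 250 in anti-B7-H3, 1461, 1328 and 1320 in anti-PD1 and 1008, 598 and 823 in isotype control. All 4 groups lay well above background, which was 41.8, 3.6, 335 and 442 reads in the same order. Its level was 70.6 ± 2.19 in combination, 14.9 ± 2.6 in anti-B7-H3, 150 ± 3.1 in anti-PD1 libraries and 308 ± 46 in isotype control, the reverse of the fast fibre order between combination and isotype control. The log2 fold change of the combination was 2.33 (SE 0.12, edgeR adjusted p = 9.064e-08) against anti-B7-H3 and -1.04 (SE 0.09, edgeR adjusted p = 5.925e-06) against anti-PD1, or -1.17 (SE 0.10) with background subtracted. Few of these reads were on the full transcript of 21459 bases, which took 4.53% in combination, 3.71% in anti-PD1 and 2.90% in isotype control. A transcript of 9135 bases with 74 exons took 44.6% in combination, 25.6% in anti-B7-H3, 47.3% in anti-PD1 libraries and 46.8% in isotype control, and one of 3572 bases with 21 exons took 27.1%, 38.2%, 26.1% and 25.2%. Which part of the gene the reads cover is not in the deposited values.

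**Figure D3:**
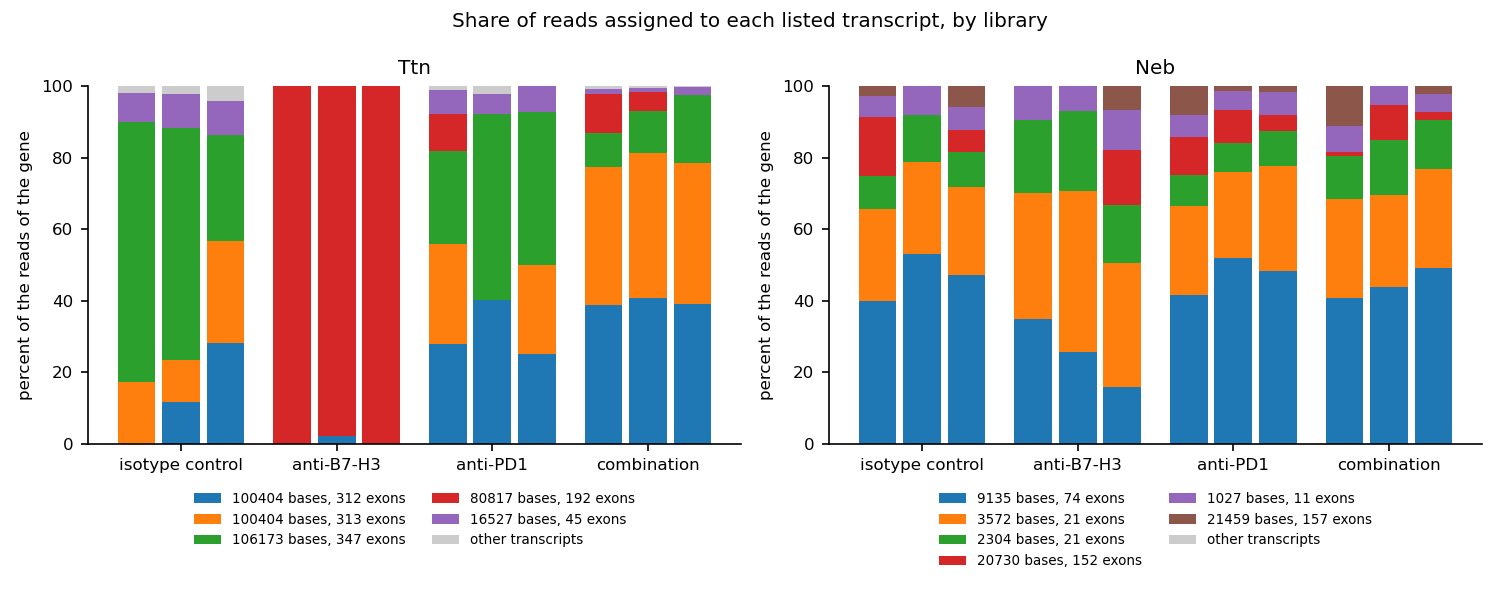
Share of the reads of Ttn (left) and Neb (right) that were assigned to each listed transcript, in percent (y axis), with 1 bar a library and 3 bars a group, and colours giving transcripts by coding length and number of exons. In anti-B7-H3 nearly all Ttn reads are on the 80817-base transcript, while Neb reads lie mostly on transcripts of 9135 and 3572 bases in every group.

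Des, the intermediate filament that links myofibrils and is also made by smooth muscle, had 97, 90 and 104 reads in combination, 42, 23 and 30 in anti-B7-H3, 31, 26 and 29 in anti-PD1 and 14, 21 and 19 in isotype control. The log2 fold change of Des was 1.81 (SE 0.18, edgeR adjusted p = 2.763e-13) against anti-B7-H3 and 1.29 (SE 0.19, edgeR adjusted p = 3.172e-08) against anti-PD1. The groups did not overlap between combination and the others. Myom1, a protein of the M band, had 21, 34 and 35 reads in combination, 19, 8 and 10 in anti-B7-H3, 30, 22 and 34 in anti-PD1 and 48, 26 and 25 in isotype control. Its reads overlapped among combination, anti-PD1 and isotype control, and all anti-B7-H3 libraries lay below the combination. Its log2 fold change against anti-B7-H3 was 1.47 (SE 0.30, edgeR adjusted p = 4.738e-05), or 1.35 (edgeR adjusted p = 0.1048) with background subtracted, and against anti-PD1 -0.40 (edgeR adjusted p = 0.2088), or 1.93 (edgeR adjusted p = 0.04496).

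The remaining frame genes had fewer reads. Xirp2, an actin-binding protein of muscle attachment sites, had no read in anti-B7-H3 and was at least 122-fold higher in combination (edgeR adjusted p = 1.157e-13). Myom2, the M band protein of fast fibres, had 14 to 23 reads a library in combination and 1 in all of anti-B7-H3, a ratio of 64.3 (11.1 to 2582). Actn2 and Ldb3, both of the Z-disc, had ratios of 27.0 (7.06 to 229) and 9.94 (3.05 to 51.3). Tcap, the titin cap, and Xirp1 did not pass the filter, and perinatal Myh8 was at least 9.18-fold higher than in anti-B7-H3 (edgeR adjusted p = 9.73e-07). Of the 10 frame genes that passed the filter, 10 were higher in combination than in anti-B7-H3, and 3 were higher and 3 lower than in anti-PD1. Over all genes, 19.8% were higher than in anti-B7-H3, and 23.1% were higher and 23.4% lower than in anti-PD1. The frame counts against anti-PD1 were near these shares. The 3 higher were Acta1, Ttn and Des, and the 3 lower Neb, Ldb3 and Myh8. With background subtracted, 7 of 8 were higher than in anti-PD1 and Neb was lower, beside 19.3% of genes higher and 17.2% lower. Without Ttn and Neb, the summed frame level was 42.7 ± 3.79 in combination, 9.93 ± 2.36 in anti-PD1, 3.26 ± 0.759 in anti-B7-H3 and -31.1 ± 13.5 in isotype control.

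Ryr1, the calcium release channel of the fibre, was read in all groups. It had 172, 117 and 164 reads in combination, 21, 19 and 18 in anti-B7-H3, 98, 116 and 90 in anti-PD1 and 110, 111 and 131 in isotype control, with 29.5, 2.55, 237 and 313 background reads expected over the groups. The log2 fold change against anti-B7-H3 was 3.15 (SE 0.18, edgeR adjusted p = 1.635e-24). Against anti-PD1 it was 0.11 (SE 0.13, edgeR adjusted p = 0.5102), or 1.97 (SE 0.50, edgeR adjusted p = 0.0107) with background subtracted. Cacna1s, the voltage sensor that opens Ryr1, had 13 to 26 reads a library in combination and a log2 fold change of 2.16 (SE 0.40, edgeR adjusted p = 8.914e-06) against anti-B7-H3. Trdn, triadin, which anchors calsequestrin to the channel, had no read in anti-B7-H3 and was at least 14.2-fold higher in combination (edgeR adjusted p = 2.513e-08). All 3 were thus higher than in anti-B7-H3, beside 19.8% of genes. None was called against anti-PD1 on the deposited counts, where 23.1% of genes were higher and 23.4% lower. With background subtracted 3 of 3 were higher, beside 19.3% of genes. The summed level was 13.1 ± 1.79 in combination, 1.01 ± 2.15 in anti-PD1, 1.65 ± 0.171 in anti-B7-H3 and -1.82 ± 10.7 in isotype control.

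Among the energy genes, Ckm, the muscle creatine kinase that regenerates ATP from phosphocreatine, behaved like the fast fibre genes. It had 93, 97 and 94 reads in combination, 0, 3 and 1 in anti-B7-H3, 12, 20 and 11 in anti-PD1 and 15, 16 and 13 in isotype control. The log2 fold change of Ckm was 6.17 (SE 0.36, edgeR adjusted p = 2.553e-24) against anti-B7-H3 and 2.25 (SE 0.24, edgeR adjusted p = 8.749e-13) against anti-PD1. No other library reached the reads of the combination. Pygm, muscle glycogen phosphorylase, had 44, 46 and 39 reads in combination, 9, 4 and 3 in anti-B7-H3, 33, 27 and 19 in anti-PD1 and 23, 41 and 31 in isotype control. Its log2 fold change was 3.17 (SE 0.34, edgeR adjusted p = 3.206e-12) against anti-B7-H3 and 0.25 (edgeR adjusted p = 0.4354) against anti-PD1. On the scaled level Pygm was highest in isotype control, 7.42 ± 5.8, with a wide spread.

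The other energy genes differed from Ckm. Eno3, the muscle enolase of glycolysis, had 94, 96 and 123 reads in combination, 60, 64 and 69 in anti-B7-H3, 55, 50 and 50 in anti-PD1 and 23, 11 and 13 in isotype control. The log2 fold change of Eno3 was 0.89 (SE 0.15, edgeR adjusted p = 8.953e-07) against anti-B7-H3 and 0.55 (SE 0.16, edgeR adjusted p = 0.002767) against anti-PD1, so in anti-B7-H3 it was present while Myh4 had 0 reads. Cox6a2, the muscle and heart subunit of cytochrome c oxidase, had 8, 8 and 10 reads in combination, 10, 11 and 9 in anti-B7-H3, 5, 2 and 1 in anti-PD1 and 4, 2 and 0 in isotype control. The combination and anti-B7-H3 overlapped, at a log2 fold change of -0.01 (SE 0.46, edgeR adjusted p = 0.9904). Against anti-PD1 it was 1.20 (SE 0.60, edgeR adjusted p = 0.09332), and 1.94 without anti-PD1 replicate 1 (edgeR adjusted p = 0.04209). Pgam2, muscle phosphoglycerate mutase, did not pass the filter, with 4 to 9 reads a library in combination. Of the 4 energy genes tested, 3 were higher in combination than in anti-B7-H3 and 2 than in anti-PD1, beside 19.8% and 23.1% of genes. The summed level was 19.9 ± 1.29 in combination, 8.28 ± 1.47 in anti-PD1, 5.80 ± 0.392 in anti-B7-H3 and 13.1 ± 6.33 in isotype control.

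Markers of other muscle and skin cells were set beside these genes. Of 9 heart genes, 4 stood above background in combination and 2 had no read. Atrial Nppa and Myl7 had 0 reads in each combination library, ventricular Myl2 had 0, 1 and 2 and Myl3 1, 1 and 0, and Tnnt2 had 197, 172 and 222. The summed heart level was 19.5 in combination, 15.7 in anti-B7-H3, 13.3 in anti-PD1 libraries and 0.189 ± 10.1 in isotype control. Of 9 smooth muscle genes, 8 stood above background in combination and 9 in anti-B7-H3, and their summed level was 118.7 ± 5.08 and 120.3 ± 3.77, beside 91.7 ± 3.04 in anti-PD1 and 69.7 ± 10.6 in isotype control. The smooth muscle sums of combination and anti-B7-H3 lay within 1 SD of each other, while the summed fast fibre level was 102.5 and 1.02.

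Regulators of muscle formation that mark muscle precursors had few reads. Of 9 such genes 4 stood above background in combination, and their summed level was 15.1, beside 13.4 in anti-B7-H3, 24.1 in anti-PD1 libraries and 16.0 in isotype control. In combination libraries Myod1 had 2, 0 and 1 reads, Myog 2, 0 and 1, Pax7 1, 1 and 3 and Myf5 none, while Mef2c, which other cells also express, had 113, 122 and 135. Of the 3 that passed the filter, 0 were called against anti-B7-H3 and 2 were lower than in anti-PD1. Over all genes, 19.8% were higher and 19.1% lower than in anti-B7-H3, and 23.4% lower than in anti-PD1. Of 16 genes of the fibre membrane and junctions, 12 stood above background in combination and 12 in anti-B7-H3. Of the 9 tested, 6 were higher than in anti-B7-H3 on the deposited counts, and 3 of 8 with background subtracted. The shares of all genes called higher were 19.8% and 15.0%.

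Other cell markers moved between the same groups. The summed level of 8 keratinocyte genes was 1.52 in combination, 0.0925 in anti-B7-H3, 18.7 ± 4.42 in anti-PD1 libraries and 60.0 ± 21.6 in isotype control, and Krt14 had 0, 0 and 5 reads and Krt5 0, 0 and 1 in combination. For 6 adipocyte genes it was 1.16, 5.19, -0.706 and -11.3 in the same order. For 7 macrophage genes it was 972, 2083, 363.6 and 312.3, and for 7 fibroblast genes 3680, 5991, 3802 and 2450. The 7 melanocyte genes summed to 38.6 ± 1.05 in combination, 24.2 ± 1.62 in anti-B7-H3, 74.3 ± 1.86 in anti-PD1 libraries and 101.1 ± 12.2 in isotype control. In combination 3 of these 7 stood above background and Sox10 held most of their reads, so few genes carried the sum. The 6 genes of regenerating fibres summed to 86.5, 73.2, 131.8 and 136.1 in the same order of groups. Of these 6 genes, 3 had no read in anti-B7-H3 and 2 stood above background there, so few genes carried that sum. All 7 macrophage and all 7 fibroblast genes were lower in combination than in anti-B7-H3, beside 19.1% of genes. Their part in the muscle gene differences was not tested.

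**Figure D4:**
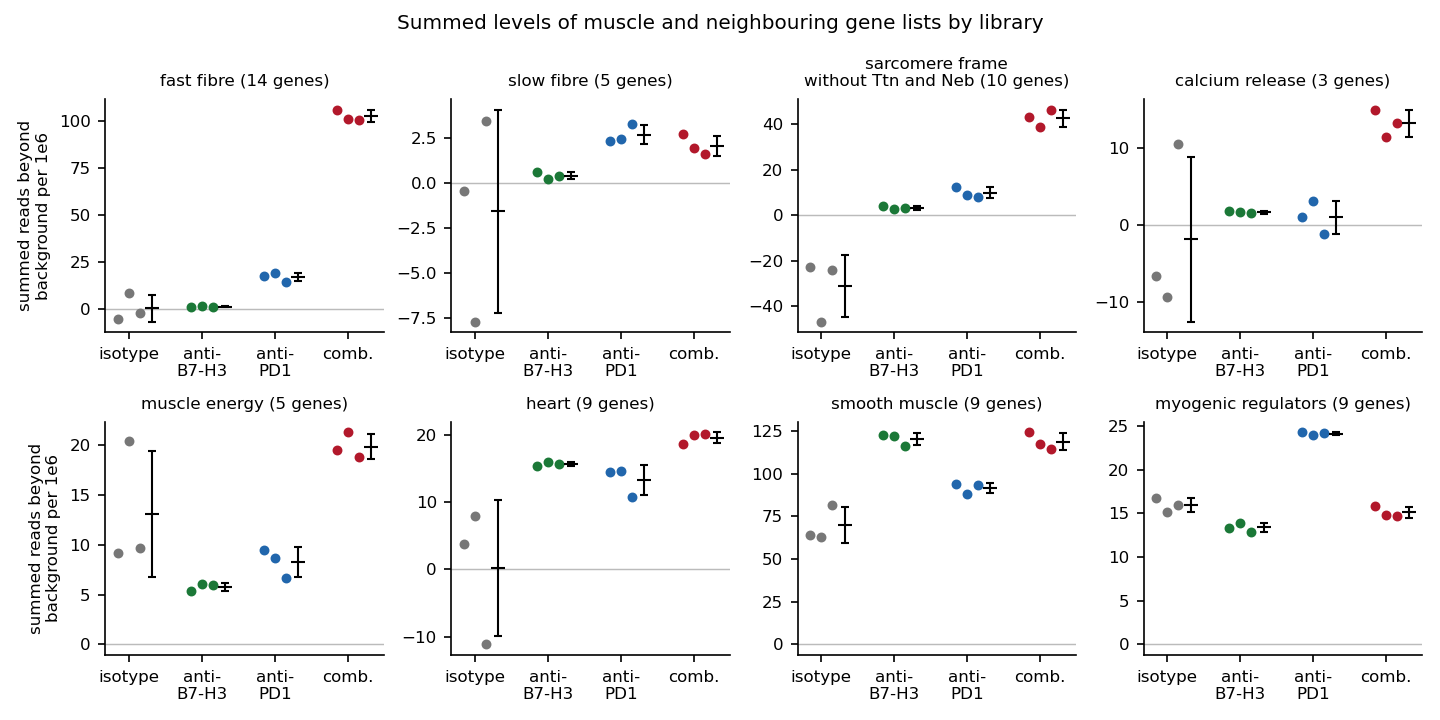
Summed level of 5 muscle gene lists and 3 neighbouring lists in each library, as reads beyond background per 1e6 scaled reads (y axis, a range of its own in each panel), with 1 point a library, the mean and SD of each group beside it, and comb. for combination. The fast fibre list averages 102.5 in combination and 1.02 in anti-B7-H3, while the smooth muscle list averages 118.7 and 120.3.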

How the data were processed

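Per the file headers, each deposited table gives the estimated count of reads of every transcript, beside its TPM, length and effective length. The estimated counts as deposited are not scaled and were the values used; the deposited TPM values were not. The submitters' processing notes name FastQC 0.11.8 and build GRCm38; the assigning program and its strand setting are not given in the sources used here. Per the labels' protocols, RNA was depleted of ribosomal RNA before library preparation.

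Of 58083 listed transcripts, 57473 matched GENCODE M21 by identifier, 57169 with the same version, and 610 did not. Of the lengths 87.3% are multiples of 3, so lengths are coding lengths. Counts were summed per gene and rounded. Background reads were the Olfr reads per kb (1189 genes) times the coding length of the longest listed transcript. Levels were scaled by TMM over 3274 genes with at least 10 reads and 3 times background in every library. Tests used edgeR 4.0.16 in R 4.3.3 (robust quasi-likelihood F test, TMM, filter by expression, 12 libraries in 1 fit, 13478 genes) with Benjamini-Hochberg adjustment, and again with background subtracted (12933 genes). Both were run on simulated data with background drawn at the Olfr rate that was then subtracted. An error in that rate could not show there. The promoters and figures used Python 3.11.15. Alternatives were DESeq2 1.42.0, other filters, scalings, background rates and groups, a replicate block, and leaving out each library.

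Values in every library are given for 24 members with at least 30 reads and 2 times background in a group, the 24 with most reads beyond background; the others are given by range. The members and lists were chosen with earlier results of these data known. Intervals, bounds and the floor of 3 reads cover counting error only, and precision follows from the reads given. Libraries of 1 group differed less than those of different groups (chi-square per gene 1.35 to 3.48 over 12 pairs, and 17.4 to 162 over 54 pairs).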

Additional observations from a re-analysis of the deposited data

How the results depend on the processing

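Of the 5 counts of members called, those of the combination comparisons stayed within 1.5 times under every alternative run. These counts add higher and lower calls and ignore direction. Combination against isotype control turned from 11 higher and 15 lower to 18 higher and 2 lower with background subtracted. DESeq2's Wald test called 27, 30 and 22 members against isotype control, anti-B7-H3 and anti-PD1, beside 26, 30 and 21. For anti-B7-H3 against isotype control the 31 calls became 13 with background subtracted, 15 with only the groups compared (17 members tested), and 8 with background at the rate of vomeronasal receptor (Vmn2r) genes. For anti-PD1 against isotype control the 21 became 9 with background subtracted. Leaving out each library gave 30 to 34, 19 to 22, 23 to 28, 32 to 33 and 21 to 22 calls for, in this order, isotype control compared with anti-B7-H3, with anti-PD1 and with combination, then combination compared with anti-B7-H3 and with anti-PD1.

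The summed fast level in isotype control was -51.4 at the Vmn2r rate, 30.5 at the rate of long genes of other tissues and -17.1 with effective lengths. It was 0.587 and -0.874 in anti-B7-H3 at the first 2 rates, and 11.8, 20.6 and 14 in anti-PD1. In combination it was 129.9 with reads outside the genes of highest share as the total. The slow level in isotype control was -19.4, 8.87 and -7.39, in anti-PD1 0.964, 4.0 and 1.74, in anti-B7-H3 -0.228 at the long-gene rate, and in combination 1.39 at that rate and 2.67 with the other total. Leaving out libraries gave fast sums of -3.70 to 3.11, 0.856 to 1.11, 15.8 to 18.2 and 100.7 to 103.4 in isotype control, anti-B7-H3, anti-PD1 and combination, and slow sums of -4.04 to 1.52, 0.319 to 0.514, 2.41 to 2.90 and 1.80 to 2.34.

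Among single genes 936 values kept direction and call, and 13 turned, in 4 genes near 0 or near background. Against anti-B7-H3, Cox6a2 was 0.0156 with background subtracted, 0.00146 with only the groups compared and 0.005971 with the replicate block, and 0.1085, 0.02504 and 0.001792 without anti-B7-H3 replicate 2, combination replicate 1 and combination replicate 2 (range -0.0568 to 0.109). Against anti-PD1, Myh2 was 2.583 with background subtracted, 0.02852 without high-share genes and 0.07253 with no filter, and 0.1704 and 0.07951 without anti-PD1 replicate 3 and combination replicate 2 (range -0.28 to 0.17). Myh7 was 0.4599 and Myom1 1.925 with background subtracted. The cause was not tested beyond the background itself.

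With TMM over genes well above background, the median log2 fold change of all genes moved by -0.28, -0.26, -0.36, -0.07 and -0.09 in the order above, and the share of calls that were higher from 48%, 45.6%, 48.5%, 50.9% and 49.8% to 32.5%, 16.2%, 24.1%, 40.3% and 39%. The replicate block gave 31, 20, 26, 30 and 21 calls. Same-numbered libraries did not deviate together (correlations -0.0361 to 0.0435 over 18 pairs, best match to the own number in 7 of 18), so they share only a number. Tnnt1, Tnnc1 and Tnni1 had at most 12 reads in any library, so their values carry a wide counting error.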

Other observations

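Xirp1, an actin-binding protein of striated muscle, had 0 reads in each of the 3 isotype control and the 3 anti-PD1 libraries, where 70 and 53 background reads were expected from Olfr genes, and 3, 0 and 13 in combination. Mybpc1 had 22, 0 and 27 reads in isotype control, 20, 24 and 37 in anti-PD1 and 16, 0 and 0 in combination. Atp2a2, the calcium pump of slow fibres and of many other cells, had 1487, 1470 and 1708 reads in combination, 1795, 1664 and 1661 in anti-B7-H3, 987, 952 and 916 in anti-PD1 and 268, 215 and 253 in isotype control, and took nearly all of the summed level of 7 further slow fibre and ventricle genes, which was 122.0 in combination and 122.1 in anti-B7-H3.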
